A study of Mus musculus with 9 samples.

Results

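The Hox genes measured here were 31 of the 39 protein-coding Hox genes in RefSeq's mouse gene table, and 31 of 14507 genes measured in all. A gene was taken as a member when its symbol began with Hoxa, Hoxb, Hoxc or Hoxd followed by a number. This rule uses no measured value, but it was set with earlier results of these data known. The study set out from sebaceous glands (SG), hair follicles (HF) and the epidermis between follicles, the interfollicular epidermis (IFE), all of the tail, and asked which genes mark each compartment. All 3 groups came from adult wild type female mice of the C57BL6/CBA strain background, matched for age. The compartment is the only difference between the groups that the labels name. Each sample pooled pieces dissected by hand, and 3 biological replicates per compartment gave 9 exon arrays. Pooling means that an array carries no value for a single animal, and p-values measure the spread between pools. All samples came from one body region, so differences in Hox expression along the body axis were not measured.

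Hox genes encode transcription factors with a homeodomain, a fold that binds DNA. In mammals they lie in 4 clusters, and genes at the same place in different clusters form a paralogue group that carries the same number. In the embryo, low-numbered genes act toward the head and high-numbered genes toward the tail and the limb tips. Adult skin keeps region-specific Hox expression, best known in dermal fibroblasts. In the epidermis the member with the clearest known role is Hoxc13, which activates hair keratin genes and without which mice grow brittle hair and appear bald.

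The HoxA cluster on chromosome 6 was measured for 9 of 11 genes, through 40 probe sets, where a probe set is the array's exon-level unit. The HoxB cluster on chromosome 11 was measured for 10 of 10 genes (43 probe sets), the HoxC cluster on chromosome 15 for 7 of 9 (29 probe sets), and the HoxD cluster on chromosome 2 for 5 of 9 (22 probe sets). The other 8 genes were not analysed here. Each gene is given as the median of the log2 intensities of its probe sets, of which a Hox gene had 2 to 9 with a median of 4. Intensities of different genes come from different probes, so compartments are compared within a gene. Where levels are set beside those of receptor genes, this is only a rough guide to dim values.

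The 3 promoters printed here belong to the members that differed among the compartments and have an entry in RefSeq's promoter table. RefSeq's table on GRCm38.p6 held 18 promoters of 17 of the 31 genes, each running from 250 bases before to 50 bases after a transcript's start. Capitals mark each CG dinucleotide, the site of DNA methylation in mammals. The Hoxa9 promoter lies at chr6:52227321-52227620 on the minus strand, that of Hoxd1 at chr2:74762730-74763029 on the plus strand and that of Hoxd10 at chr2:74691641-74691940 on the plus strand.
Hoxa9: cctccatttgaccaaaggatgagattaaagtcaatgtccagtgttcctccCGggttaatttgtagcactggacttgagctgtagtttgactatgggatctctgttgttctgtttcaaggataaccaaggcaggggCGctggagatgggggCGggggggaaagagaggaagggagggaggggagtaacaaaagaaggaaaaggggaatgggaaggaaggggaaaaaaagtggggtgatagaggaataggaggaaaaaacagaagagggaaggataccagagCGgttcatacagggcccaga
Hoxd1: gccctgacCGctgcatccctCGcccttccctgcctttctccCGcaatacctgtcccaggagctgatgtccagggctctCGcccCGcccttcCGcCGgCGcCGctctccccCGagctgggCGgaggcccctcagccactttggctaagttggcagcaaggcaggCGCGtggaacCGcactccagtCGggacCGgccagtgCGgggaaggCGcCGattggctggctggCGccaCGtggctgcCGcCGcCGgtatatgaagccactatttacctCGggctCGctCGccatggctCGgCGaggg
Hoxd10: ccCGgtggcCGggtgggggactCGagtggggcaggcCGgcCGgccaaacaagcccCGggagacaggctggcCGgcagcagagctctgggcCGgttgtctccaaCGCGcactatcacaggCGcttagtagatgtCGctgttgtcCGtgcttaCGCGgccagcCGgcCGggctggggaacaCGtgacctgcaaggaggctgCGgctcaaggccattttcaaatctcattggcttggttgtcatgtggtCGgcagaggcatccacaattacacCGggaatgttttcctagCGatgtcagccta

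The Hoxa9 promoter held 4 CG dinucleotides at a GC content of 49.7%, the Hoxd1 promoter 29 at 69.7%, and the Hoxd10 promoter 22 at 62.7%. The 18 Hox promoters held 4 to 37 with a median of 17.5, beside a median of 7.0 over all 32851 promoters of the table. The Hoxa9 window had the fewest of the 18. The following motifs were searched on both strands: TTTATNG, a form bound by posterior Hox proteins, TGATTNAT, a form bound by Hox proteins with Pbx, and TGACAG, the core bound by Meis proteins. None of them lay in these 3 windows. TTTATNG was found in 1 of the 18 Hox promoters and 10.9% of all promoters, TGATTNAT in 1 and 3.22%, and TGACAG in 2 and 19.2%. The arrays measured no methylation or binding.

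Groups followed the sample titles, because the array file names in the descriptions named another compartment for 9 of 9 arrays. Marker lists followed the titles. Their levels are means of log2 values centred on each gene's mean over the arrays. The sebocyte list (14 genes) ran from 1.35 to 1.84 in SG, from -0.35 to 0.13 in HF and from -1.57 to -1.39 in IFE. The list of resting hair follicle genes (13 genes) was highest in HF, at 0.54 to 0.61, with 0.23 to 0.46 in SG and -0.96 to -0.90 in IFE. The list of suprabasal epidermal genes (10 genes) was highest in IFE, at 0.78 to 1.12, with -0.61 to -0.48 in SG and -0.63 to -0.07 in HF. SG replicate 3 stood apart from its group. Its level of the list of genes of the hair shaft and its inner sheath (11 genes) was 1.18, where SG replicates 1 and 2 had -1.56 and -1.35, the HF arrays 2.57 to 3.26 and the IFE arrays -2.47 to -2.42. Where a call or a named gene of an SG comparison changed without this array, the value without it is given. For the gene lists this fit was added after the data were seen. In bulk samples of this kind, fewer cells of a type and less RNA per cell cannot be told apart.

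Among Hox genes, 6 differed among the 3 compartments and the others did not pass the test. By limma's moderated F test, with p-values adjusted by Benjamini-Hochberg over 14507 genes, 6 of 31 passed an adjusted p of 0.05 (19.4%), where 24.5% of all genes tested did. The 6 were Hoxd1 (adjusted p = 0.0058), Hoxa9 (0.00864), Hoxc8 (0.019), Hoxc13 (0.0204), Hoxc10 (0.0215) and Hoxd10 (0.0223). Of these, 3 lie in the HoxC cluster, 2 in HoxD, 1 in HoxA and none in HoxB, where the adjusted F p ran from 0.109 to 0.968. Under other settings HoxB genes passed too. Quantile normalization and median centring each added Hoxb1 and Hoxb8, and the brightest probe set as the gene's value added Hoxb4, Hoxb8 and Hoxb9. The plot of the 6 genes by array shows 4 patterns: Hoxc13 and Hoxd10 lower in SG, Hoxc8 and Hoxc10 lower in IFE, Hoxa9 lower in HF, and Hoxd1 highest in SG.

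**Figure D1:**
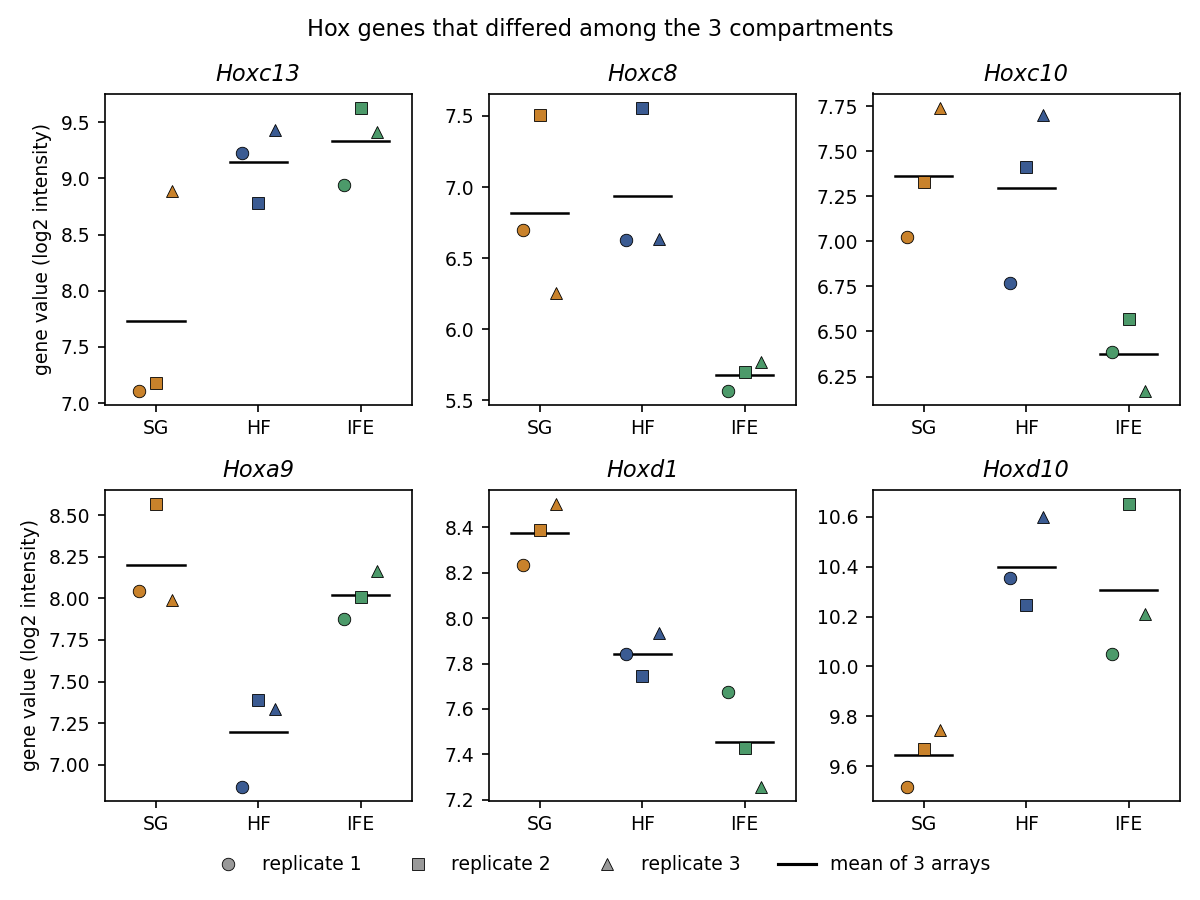
Log2 intensity of Hoxc13, Hoxc8, Hoxc10, Hoxa9, Hoxd1 and Hoxd10 (vertical axes, a separate range in each panel) on the 3 arrays of SG, HF and IFE. Circles, squares and triangles are replicates 1, 2 and 3 and the bars are group means of 3 arrays. SG replicate 3 lies with HF and IFE for Hoxc13, and the 3 IFE arrays of Hoxc8 and Hoxc10 lie below all 6 others.

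Hoxc13, the hair keratin activator, was lower in SG than in either other compartment, and HF and IFE did not differ beyond their spread. Its log2 value was 7.11, 7.18 and 8.89 on SG replicates 1 to 3. On the HF arrays it was 9.23, 8.78 and 9.43, and on the IFE arrays 8.94, 9.63 and 9.41. Every IFE array lay above every SG array, while SG replicate 3 lay above HF replicate 2. SG replicate 3 is also the SG array with hair shaft transcripts, and their part in its Hoxc13 value was not tested.

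Hoxc13 was 3.03-fold lower in SG than in IFE (-1.60 ± 0.40 on the log2 scale, SE of the fit, n = 3 arrays per compartment, adjusted p = 0.0144). It was 2.67-fold lower in SG than in HF (-1.42 ± 0.40, adjusted p = 0.0463). The difference between HF and IFE was -0.18 ± 0.40 (adjusted p = 0.823), with a 95% interval of -1.06 to 0.69. Without SG replicate 3 the differences were -2.18 from IFE (adjusted p = 0.000152) and -2.00 from HF (adjusted p = 0.000345). The call against IFE was lost without SG replicate 1 (-1.29, adjusted p = 0.0564), SG replicate 2 (-1.33, adjusted p = 0.0637) or IFE replicate 2 (-1.45, adjusted p = 0.0659). The call against HF was lost on leaving out any 1 array other than SG replicate 3, with adjusted p from 0.0504 to 0.174. It was also lost when the final letter of the array names was taken as a block (-1.07, adjusted p = 0.111).

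The 8 probe sets of Hoxc13 did not move alike. Of them, 7 were lower in SG than in IFE and 7 lower in SG than in HF, with log2 differences from IFE of -1.90 to 0.33. Probe sets 4728427, 5287994 and 5554184 were called in a fit on all 154736 probe sets. Probe set 4728427 read 8.66, 8.52 and 10.67 in SG, 11.38, 10.68 and 11.33 in HF, and 11.27, 11.23 and 11.04 in IFE. The brightest, 5013456, read 10.96, 11.19 and 11.68 in SG, 11.40, 11.37 and 11.65 in HF, and 11.63, 11.60 and 11.41 in IFE. With that probe set alone as the gene's value, the difference from IFE was -0.27 (adjusted p = 0.370) and that from HF -0.20 (adjusted p = 0.599). With the mean of the 8 the differences were -0.97 (adjusted p = 0.0269) and -0.87 (adjusted p = 0.0727). The fall in SG thus depends on which probe sets stand for the gene.

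**Figure D2:**
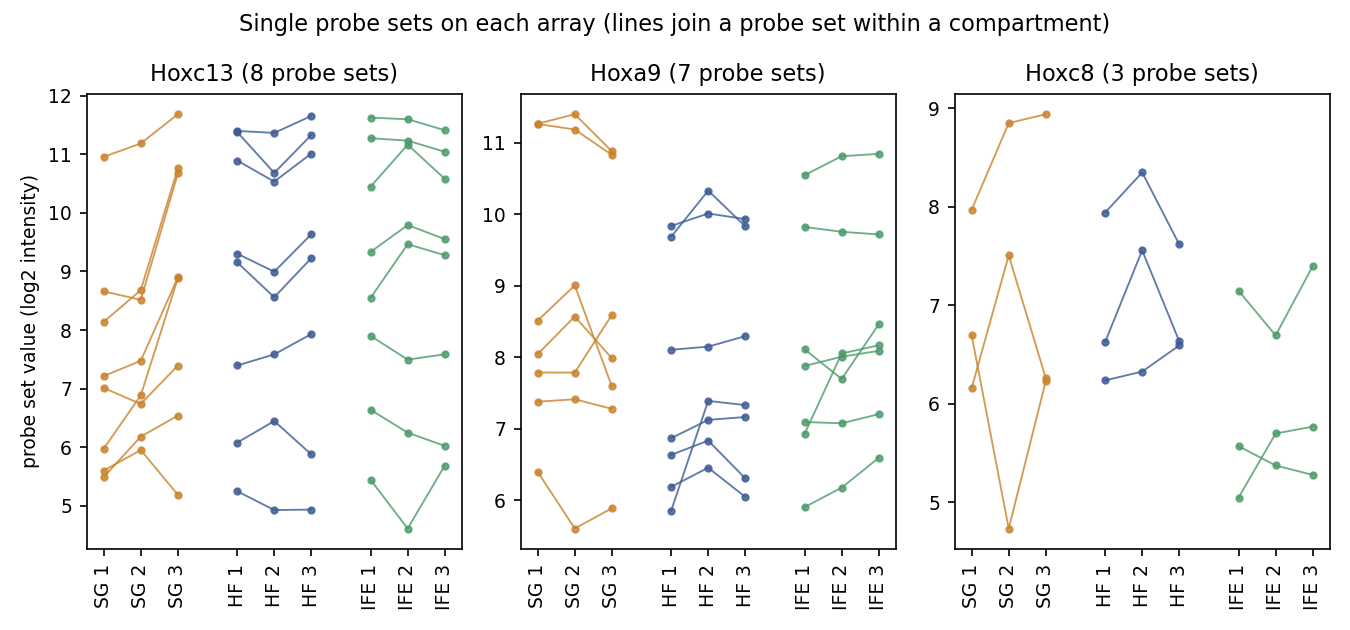
Log2 intensity of each probe set of Hoxc13 (8), Hoxa9 (7) and Hoxc8 (3) on the 9 arrays. Points joined by a line are one probe set within a compartment. For Hoxc13 several lines climb to SG replicate 3 while the brightest probe set stays near its level in HF and IFE, and for Hoxa9 both bright probe sets lie lower in HF than in SG.

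Hair regulators that act beside Hoxc13 were read from a list of 16 genes. Foxn1, a winged helix factor whose loss gives the nude mouse and which acts downstream of Hoxc13, had 6.82, 6.91 and 8.61 in SG, 9.37, 9.25 and 9.50 in HF, and 8.61, 8.74 and 8.73 in IFE. It was lower in SG than in HF by a log2 difference of -1.93 ± 0.37 (adjusted p = 0.0067) and lower than in IFE (-1.25 ± 0.37, adjusted p = 0.0308). SG replicate 3 was again the high SG array. Without it Foxn1 differed by -2.51 from HF (adjusted p = 4.81e-06) and by -1.83 from IFE (adjusted p = 4.50e-05).

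The homeobox gene Msx2, which keeps hair in growth, read 6.29, 7.64 and 9.93 in SG, 11.11, 10.81 and 11.46 in HF, and 8.11, 8.31 and 8.37 in IFE. Msx2 fell in SG against HF (-3.17 ± 0.65, adjusted p = 0.00901) and rose in HF against IFE (2.86 ± 0.65, adjusted p = 0.0127), a comparison in which Hoxc13 gave -0.18. Dlx3, a hair differentiation factor, fell in SG against HF (-2.03), as did Ovol1, a zinc finger factor of epidermal differentiation (-1.83). Without SG replicate 3 these differences from HF were -4.16 for Msx2, -2.60 for Dlx3 and -2.18 for Ovol1. Msx2 and Dlx3 were then also called lower in SG than in IFE, at -1.30 (adjusted p = 0.0163) and -1.22 (adjusted p = 0.0022), where the fit with all arrays gave -0.31 and -0.65. In the list as a whole, 2 genes were higher and 4 lower in SG than in IFE, 4 higher and 2 lower in HF than in IFE, and 0 higher and 4 lower in SG than in HF. The shares of all genes called higher and lower were 2.54% and 6.96%, 2.96% and 3.36%, and 1.81% and 3.3% in the same order. Without SG replicate 3 the counts lower in SG were 6 against IFE and 7 against HF, and all calls made with it were kept. Against IFE, Lhx2, a regulator of follicle stem cells, rose in SG (1.90) and HF (2.19) and the Wnt effector Lef1 rose by 1.55 and 2.22. The chromatin organiser Satb1 fell by 2.24 and 2.19, and the homeobox gene Dlx5 by 1.54 and 1.25.

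The hair shaft list was lowest in IFE, where Hoxc13 read 8.94 to 9.63. Krt84, a hard keratin known from the tail scale, was therefore added after its values were seen. It read 11.02, 10.94 and 12.13 in SG, 11.59, 12.46 and 11.62 in HF, and 13.99, 14.08 and 13.80 in IFE. All IFE arrays lay above all others, with differences of -2.60 ± 0.32 for SG against IFE (adjusted p = 0.000203) and -2.07 ± 0.32 for HF against IFE (adjusted p = 0.00122). Without SG replicate 3 the difference of SG from IFE was -2.98 (adjusted p = 2.59e-05) and that of SG from HF -0.91 (adjusted p = 0.0415), beside -0.53 with it.

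**Figure D3:**
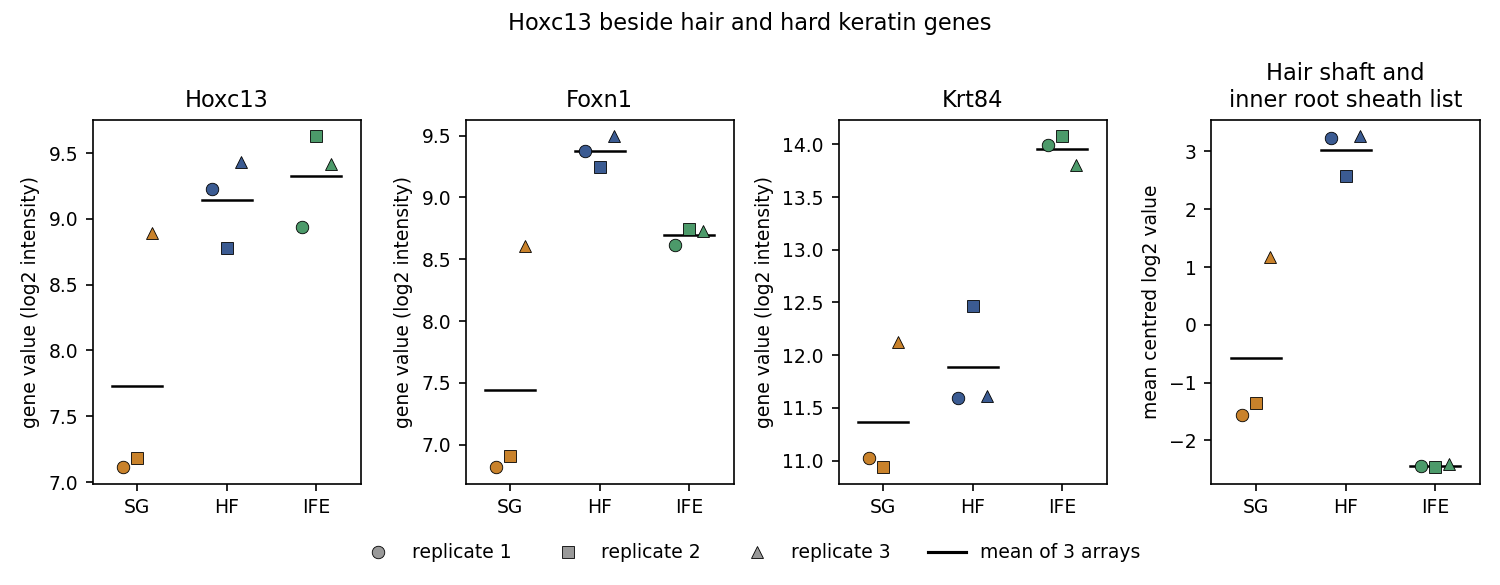
Log2 intensity of Hoxc13, Foxn1 and Krt84, and the mean centred log2 value of the 11 genes of the hair shaft list, on the 3 arrays of each compartment. Symbols are replicates 1, 2 and 3 and bars are group means. Hoxc13 is high in both HF and IFE, the hair list is high in HF (2.57 to 3.26) and Krt84 in IFE (13.80 to 14.08), and SG replicate 3 is the highest SG array in all 4 panels.

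Hoxc8 and Hoxc10, both of the HoxC cluster, were higher in both SG and HF than in IFE. Hoxc8, which patterns thoracic vertebrae, read 6.69, 7.51 and 6.26 in SG, 6.63, 7.56 and 6.63 in HF, and 5.57, 5.70 and 5.77 in IFE. All SG and HF arrays lay above all IFE arrays. It was 2.21-fold higher in SG than in IFE (log2 difference 1.14 ± 0.32, adjusted p = 0.0226) and 2.40-fold higher in HF than in IFE (1.26 ± 0.32, adjusted p = 0.0217). Between SG and HF the difference was -0.12 ± 0.32 (adjusted p = 0.866). The 3 probe sets of Hoxc8 were all higher in SG and in HF than in IFE, of which 2 were called against IFE in SG and 1 in HF. The call against IFE was lost in SG without SG replicate 2 (0.80, adjusted p = 0.0852), IFE replicate 1 (1.09, adjusted p = 0.0509), IFE replicate 2 (1.15, adjusted p = 0.0685) or IFE replicate 3 (1.19, adjusted p = 0.0547). It was also lost when the final letter of the array names was taken as a block (1.25, adjusted p = 0.0517). SG replicate 1 and IFE replicate 3 did not enter that difference. In HF it was lost without HF replicate 2 (0.95, adjusted p = 0.0752), IFE replicate 2 (1.27, adjusted p = 0.0725) or IFE replicate 3 (1.31, adjusted p = 0.0573).

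Hoxc10, a gene of lumbar vertebrae and hindlimb motor neurons, read 7.02, 7.33 and 7.74 in SG, 6.77, 7.41 and 7.70 in HF, and 6.39, 6.57 and 6.17 in IFE. The IFE arrays again lay below all others. It was higher in SG by 0.99 ± 0.26 (adjusted p = 0.0168) and in HF by 0.92 ± 0.26 (adjusted p = 0.0361), both short of the log2 difference of 1 that a call also required. Under median centring of the arrays the differences were 1.23 and 1.02, past that minimum. Both of its 2 probe sets were higher in SG and in HF than in IFE. The adjusted p of SG against IFE rose above 0.05 without IFE replicate 3 (0.89, adjusted p = 0.0681), and that of HF against IFE did so without SG replicate 2, HF replicate 2 or 3, or any IFE array (0.0506 to 0.157).

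Lists of other cell types were read beside Hoxc8 and Hoxc10. Of the 8 measured dermal fibroblast genes of 12, 0 were called by limma in SG against IFE (median 0.29) and 1, higher, in HF against IFE (median 0.20). They averaged -0.07 to 0.32 in SG and 0.07 to 0.15 in HF, against -0.36 to -0.10 in IFE. Of the 8, 4 (Col1a2, Col3a1, Pdgfra and Fbn1) were never above the level under which 95% of 509 odorant, pheromone and trace amine receptor genes lay, on any array. The list of 6 adipocyte genes ran likewise, at 0.07 to 0.18 in SG and 0.06 to 0.20 in HF, against -0.41 to -0.15 in IFE, with 0 called by limma in SG and 1 higher in HF. The 6 endothelial genes ran from 0.09 to 0.17 in SG and from -0.14 to 0.14 in HF, against -0.29 to 0.03 in IFE (median difference 0.17 in both), and 6 of 6 were never above that level of receptor genes. The 7 smooth muscle genes ran from -0.30 to 0.10 in SG and from 0.24 to 0.31 in HF, against -0.30 to -0.13 in IFE, with medians of 0.22 and 0.30 and 1 called, higher, in HF. The 10 dermal papilla genes overlapped, at -0.03 to 0.13 in SG, -0.04 to 0.04 in HF and -0.12 to 0.01 in IFE. Of them, 2 were called higher and 1 lower in SG against IFE, and 1 and 1 in HF against IFE. The 4 Schwann cell genes also overlapped, with 1 higher and 1 lower in both comparisons. Of the 7 melanocyte genes, 1 was called higher in SG and 2 in HF. Of all genes, 2.54% were called higher and 6.96% lower in SG against IFE, and 2.96% and 3.36% in HF against IFE. The part of dermal, vessel and fat cells in the Hoxc8 and Hoxc10 values was not tested. Hoxc8 itself exceeded that level of receptor genes on 0 of 9 arrays and Hoxc10 on 1, so both gene values lay in the dim range of the array. The brightest Hoxc8 probe set, 4320721, read 7.97, 8.85 and 8.94 in SG and 7.94, 8.35 and 7.62 in HF. On the IFE arrays that probe set read 7.15, 6.69 and 7.40. The receptor genes as a whole had a median difference of 0.27 for SG against IFE and 0.08 for HF against IFE.

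Hoxc9, which lies between Hoxc8 and Hoxc10, read 7.22, 8.08 and 8.16 in SG, 8.33, 8.13 and 8.86 in HF, and 4.98, 7.83 and 7.81 in IFE. The low IFE replicate 1 set the size of the difference of HF from IFE, 1.57 ± 0.61 (adjusted p = 0.122). In probe set 4545489 the IFE arrays read 4.98, 8.08 and 7.81, and in probe set 5020691 they read 4.00, 5.61 and 6.25, while in probe set 4713884 they read 8.43, 7.83 and 7.93. The low value of IFE replicate 1 thus ran through 2 of the 3 probe sets. Hoxc6, on the other side of Hoxc8, held one probe set that was called lower in SG. Probe set 4659653 read 4.50, 4.02 and 5.41 in SG, 6.26, 7.03 and 6.35 in HF, and 6.68, 6.78 and 6.15 in IFE. The other 4 probe sets of Hoxc6 were not called, and its gene value differed by -0.52 ± 0.23 between SG and IFE (adjusted p = 0.127).

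Hoxa9, known for driving blood progenitors and for patterning the caudal skeleton, had its lowest gene value in HF. It read 8.04, 8.57 and 7.99 in SG, 6.87, 7.39 and 7.33 in HF, and 7.88, 8.01 and 8.17 in IFE. No HF array reached the lowest SG or IFE array. It was 2.01-fold higher in SG than in HF (1.00 ± 0.21, adjusted p = 0.0105). HF against IFE gave -0.82 ± 0.21 (adjusted p = 0.024), below the log2 minimum, and SG against IFE gave 0.18 ± 0.21 (adjusted p = 0.573). The call against HF was lost without SG replicate 2 (0.82, adjusted p = 0.0472, under the log2 minimum) or HF replicate 1 (0.84, adjusted p = 0.0535). It was also lost when the final letter of the array names was taken as a block (0.92, adjusted p = 0.108). SG replicate 1 and HF replicate 1 did not enter that difference. The adjusted p of HF against IFE rose above 0.05 without HF replicate 1 or 3 or IFE replicate 2 or 3 (up to 0.121).

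Of the 7 probe sets of Hoxa9, 5 were higher in SG than in HF, and 2 of these were called. In HF against IFE 3 were higher and 4 lower, from -1.13 to 0.16, and limma called 0 of them. The bright probe set 4722338 read 11.27, 11.40 and 10.88 in SG, 9.84, 10.01 and 9.93 in HF, and 9.82, 9.76 and 9.72 in IFE, which sets SG apart from both others. The other bright one, 5399337, read 11.27, 11.19 and 10.83 in SG, 9.69, 10.33 and 9.83 in HF, and 10.55, 10.81 and 10.85 in IFE, which sets HF apart. In the fit on probe sets 4722338 was called higher in SG than in IFE (1.42, adjusted p = 0.0016) as well as in SG than in HF (1.26, adjusted p = 0.0083). For HF against IFE the bright probe sets differed in sign, at 0.16 for 4722338 and -0.79 for 5399337, while SG against IFE gave a positive difference in both (1.42 and 0.36).

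Hoxd1, the anterior end of the HoxD cluster and known in mice for wiring pain-sensing neurons, was highest in SG. It read 8.23, 8.39 and 8.50 in SG, 7.84, 7.75 and 7.93 in HF, and 7.67, 7.43 and 7.26 in IFE, with no overlap between any pair of compartments. It was higher in SG than in IFE by 0.92 ± 0.17 (adjusted p = 0.0026), the smallest p of any Hox gene. SG against HF gave 0.53 ± 0.17 (adjusted p = 0.0746) and HF against IFE 0.39 ± 0.17 (adjusted p = 0.171). All 9 of these values were those of probe set 5107550, the middle one of 3. Probe set 4578630 differed by -0.27 between SG and IFE and probe set 4750482 by 0.31, neither of which passed the test. The first is the brightest, and with it as the gene's value SG against IFE was -0.27 (adjusted p = 0.337), while the mean of the 3 gave 0.32 (adjusted p = 0.153). Under both settings Hoxd1 no longer passed the F test.

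Hoxd10, a gene of hindlimb motor neurons and limb skeleton, was lower in SG. It read 9.52, 9.67 and 9.75 in SG, 10.36, 10.25 and 10.60 in HF, and 10.05, 10.65 and 10.21 in IFE. All SG arrays lay below all others. The difference was -0.66 ± 0.19 from IFE (adjusted p = 0.0288) and -0.76 ± 0.19 from HF (adjusted p = 0.0287), with 0.10 ± 0.19 between HF and IFE (adjusted p = 0.803). The adjusted p against IFE rose above 0.05 without SG replicate 1 or 2 or IFE replicate 2 or 3 (up to 0.127), and that against HF without SG replicate 1 or 2 or HF replicate 1 or 3 (up to 0.138). All 9 gene values of Hoxd10 were those of probe set 5546949. Of its 3 probe sets, 2 were lower and 1 higher in SG than in IFE (-0.66 to 0.09). All 3 were lower in SG than in HF, and 0 were called in either comparison. Its neighbour Hoxd9, which acts in limb and lumbosacral patterning, read 9.03, 8.53 and 8.74 in SG, 8.97, 8.88 and 8.87 in HF, and 9.12, 9.45 and 9.29 in IFE. Hoxd9 missed the threshold in SG against IFE (-0.52 ± 0.18, adjusted p = 0.0539), with 7 of 8 probe sets lower. Every IFE array was above every SG and HF array for Hoxd9, whereas for Hoxd10 the HF arrays lay with IFE.

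The other measured genes of paralogue group 13, Hoxb13 and Hoxd13, passed the test in no comparison. Hoxb13, which limits growth of the tail end of the spine, read 7.30, 6.96 and 7.37 in SG, 7.12, 7.40 and 7.30 in HF, and 7.28, 7.36 and 7.38 in IFE. The compartments overlapped, and the 95% interval of the difference of SG from IFE was -0.50 to 0.24 around -0.13. Hoxd13, a gene of the digits, read 6.37, 5.85 and 5.37 in SG, 6.60, 6.60 and 6.25 in HF, and 6.13, 5.62 and 5.99 in IFE. Its HF arrays lay above the IFE arrays by 0.57 ± 0.25, which did not pass the test (adjusted p = 0.168), and SG against HF gave -0.62 ± 0.25 (adjusted p = 0.153). Hoxd13 exceeded the level of 95% of the receptor genes on 0 of 9 arrays and Hoxb13 on 1.

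A call needed an adjusted p below 0.05 together with a log2 difference of 1 or more. By that rule 2 of 31 Hox genes were called in SG against IFE (6.45%), beside 9.49% of all 14507 genes. Hoxc8 was the 1 higher, where 2.54% of all genes were higher, and Hoxc13 the 1 lower, where 6.96% were lower. In HF against IFE 1 gene was called (3.23%, beside 6.31% of all genes), which was Hoxc8, higher (2.96% of all genes were higher and 3.36% lower). In SG against HF 2 were called (6.45%, beside 5.11%), Hoxa9 higher (1.81% of all genes) and Hoxc13 lower (3.3%). With no minimum on the difference the counts were 5, 3 and 3 genes (16.1%, 9.68% and 9.68%), beside 21.9%, 12.1% and 9.46% of all genes. These shares were near or under those of all genes. Without SG replicate 3 the calls fell on the same genes, and the F test passed the same 6. The 3 comparisons share arrays.

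Sets of arrays that did not overlap were more common than calls. In SG against IFE 9 Hox genes had all 3 SG arrays above all 3 IFE arrays (29%, beside 13.2% of all genes and 22.0% of the receptor genes). Another 5 had them below (16.1%, beside 21.7% of all genes and 2.75% of the receptor genes). The 4 of the 9 with the largest differences after Hoxc8, Hoxc10 and Hoxd1 were Hoxc4, Hoxb8, Hoxa10 and Hoxa6, at 0.54, 0.53, 0.49 and 0.49, with adjusted p from 0.053 to 0.0736. In HF against IFE 8 were above (25.8%, beside 13.5% of all genes and 9.82% of the receptor genes) and 5 below (16.1%, beside 19.3% and 6.29% of the receptor genes). In SG against HF 4 were above (12.9%, beside 12.1% and 15.9% of the receptor genes) and 4 below (12.9%, beside 17.2% and 3.14% of the receptor genes). The receptor genes, taken as examples of dim genes, lay higher in SG by a median of 0.27 against IFE and 0.21 against HF, and the part of this shift in the Hox values was not tested.

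The median Hox gene moved little. Its log2 difference was 0.02 for SG against IFE, beside -0.06 for all genes, 0.11 for HF against IFE, beside -0.07, and -0.07 for SG against HF, beside -0.02. Quantile normalization shifted the median of all genes by 0.22, 0.09 and 0.14 and median centring by 0.24, 0.11 and 0.13 in these comparisons. The Hox median then stood at 0.22, 0.17 and 0.07 with quantile normalization, beside 0.16, 0.01 and 0.12 for all genes, so its sign for SG against HF turned with the scaling. The same settings raised the share of called genes that were higher to 56.1% with quantile normalization and 53% with median centring, beside 26.7% as deposited, in SG against IFE. That share in SG against HF was 50.1% under each, beside 35.4%, and in HF against IFE 58.2% and 56.9%, beside 46.8%.

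**Figure D4:**
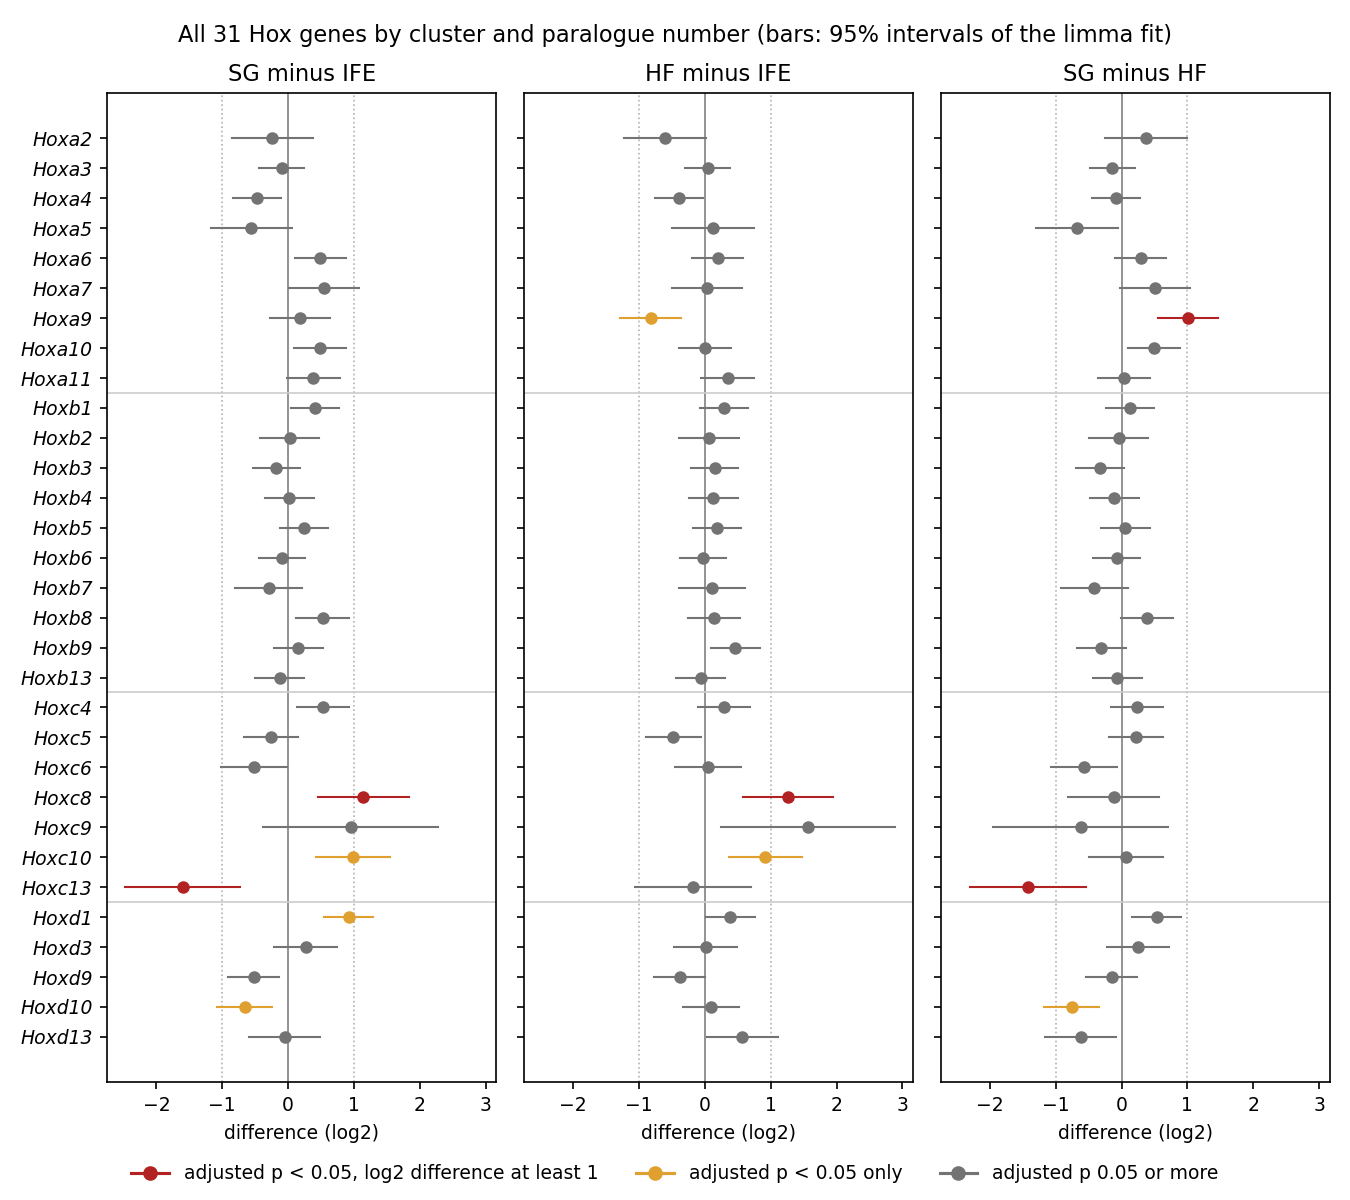
Log2 difference of each of the 31 Hox genes (rows, by cluster and paralogue number) for SG minus IFE, HF minus IFE and SG minus HF. Points are the differences, bars are 95% intervals of the limma fit and dotted lines mark a log2 difference of 1. Most intervals lie within 1 unit of 0, and the genes with an adjusted p below 0.05 (red and orange) lie in HoxA, HoxC and HoxD.

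By cluster, the HoxB genes had the narrowest range, with differences of SG from IFE between -0.30 and 0.53 in 10 genes. None of the 10 was called, where 9.49% of all genes were, so that count does not set the cluster apart. The HoxA genes lay between -0.56 and 0.54, the HoxD genes between -0.66 and 0.92 and the HoxC genes between -1.60 and 1.14. By place along the clusters, the median difference of SG from IFE was 0.02 for groups 1 to 4 (10 genes), 0.07 for groups 5 to 8 (10 genes) and 0.15 for groups 9 to 13 (11 genes). The posterior genes held both the lowest value and the widest range, from -1.60 to 0.99. In SG against IFE all measured members of groups 1, 8 and 13 had differences of one sign, with 2 of 2 higher, 2 of 2 higher and 3 of 3 lower. Of all genes, 44.9% were higher in this comparison. In group 13, Hoxb13 (-0.13 ± 0.17) and Hoxd13 (-0.05 ± 0.25) lay within their SE of 0. In group 1, Hoxb1 had 2 probe sets higher and 2 lower. Group 10 held both directions, with 0.99 for Hoxc10, -0.66 for Hoxd10 and 0.49 ± 0.18 for Hoxa10 (adjusted p = 0.0736).

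Among the remaining HoxA genes, Hoxa10, a gene of uterine development, ran from 7.11 to 7.58 in SG, from 6.76 to 7.03 in HF and from 6.73 to 7.06 in IFE. Hoxa6 ran from 6.43 to 6.91, 6.27 to 6.59 and 6.10 to 6.29 in the same order. Hoxa4 lay the other way, at 6.51 to 6.76 in SG, 6.61 to 6.80 in HF and 6.91 to 7.31 in IFE (SG against IFE -0.47 ± 0.17, adjusted p = 0.0654). Hoxa5, needed for lung and trachea, was lowest in SG at 6.39 to 7.20, with 7.22 to 7.78 in HF and 6.89 to 7.75 in IFE. Hoxa2, which patterns the hindbrain and the middle ear, ran from 6.24 to 7.45 in SG, from 6.12 to 6.49 in HF and from 6.68 to 7.15 in IFE. Hoxa3, Hoxa7 and Hoxa11 overlapped in every comparison, with differences between -0.14 and 0.54. None of these 8 genes passed the test.

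Among the HoxB genes, Hoxb8, whose loss gives mice that groom excessively, ran from 6.44 to 6.84 in SG, from 6.08 to 6.38 in HF and from 5.88 to 6.26 in IFE. Hoxb1, which specifies hindbrain segments, ran from 7.42 to 7.65, 7.22 to 7.60 and 7.04 to 7.19 in the same order. Hoxb9, a gene of the ribs, was highest in HF at 7.35 to 7.79, with 7.19 to 7.33 in SG and 6.94 to 7.20 in IFE (HF against IFE 0.46 ± 0.17, adjusted p = 0.107). One of its 4 probe sets, 4747942, was called higher in HF, with 8.08, 7.12 and 7.37 in HF and 5.62, 6.82 and 5.28 in IFE. Hoxb3 ran from 7.70 to 8.06 in SG, from 8.09 to 8.25 in HF and from 7.89 to 8.10 in IFE. Hoxb2, Hoxb4, Hoxb5, Hoxb6 and Hoxb7 overlapped in every comparison, with differences between -0.41 and 0.24.

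Of the remaining HoxC and HoxD genes, Hoxc4 ran from 6.24 to 6.82 in SG, from 6.26 to 6.35 in HF and from 5.88 to 6.13 in IFE. Hoxc5 was lowest in HF, at 5.95 to 6.19, with 6.07 to 6.58 in SG and 6.28 to 6.69 in IFE. Hoxc6 ran from 5.75 to 6.31, 6.30 to 7.10 and 6.48 to 6.59 in SG, HF and IFE. Hoxd3, a gene of the neck vertebrae, ran from 7.99 to 8.24 in SG, from 7.51 to 8.35 in HF and from 7.67 to 7.93 in IFE. None of these 4 passed the test.

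Against the receptor genes, 3 Hox genes (Hoxb3, Hoxd9 and Hoxd10) lay above the 95% level on all 9 arrays, 14 on some arrays and 14 on no array. Over all genes, 25.9% lay above it on all arrays. The level stood between 7.25 and 7.75. It is no detection call, since the deposited table was used without one.

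At the level of single probe sets, 8 of 134 Hox probe sets were called in SG against IFE (5.97%, beside 15.4% of all probe sets), 2 in HF against IFE (1.49%, beside 6.76%) and 4 in SG against HF (2.99%, beside 5.78%). This fit was added after the gene values were seen. The calls fell on Hoxa9, Hoxb9, Hoxc6, Hoxc8, Hoxc10 and Hoxc13.

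Genes that act with the Hox proteins were read from lists of cofactors and chromatin regulators. Of the cofactors, which bind DNA next to Hox proteins, 10 of 12 were measured and 1 was called in any comparison, lower in HF than in IFE, where 3.36% of all genes were lower. That was Meis1, a homeodomain cofactor of many Hox proteins. It read 8.01, 8.03 and 7.70 in SG, 7.90, 7.55 and 7.49 in HF, and 8.56, 8.88 and 8.97 in IFE, where all IFE arrays lay above all others. HF against IFE gave -1.16 ± 0.19 (adjusted p = 0.00181) and SG against IFE -0.89 ± 0.19 (adjusted p = 0.00571), the second below the log2 minimum. The median cofactor differed by -0.16 for SG against IFE, 0.10 for HF against IFE and -0.07 for SG against HF.

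The Polycomb group, which silences Hox clusters through histone marks, was measured for 21 of 23 genes. In SG against IFE 0 were higher and 2 of 21 lower, where 6.96% of all genes were lower, the PRC2 partner Aebp2 (-1.04 ± 0.19, adjusted p = 0.00219) and the PRC1 ubiquitin ligase Rnf2 (-1.05 ± 0.26, adjusted p = 0.0142). In HF against IFE 0 were higher and 1 lower, where 3.36% of all genes were lower, the histone chaperone Rbbp7 (-1.01 ± 0.23, adjusted p = 0.0145). In SG against HF 0 were higher and 1 lower, where 3.3% of all genes were lower, Rnf2 (-1.06 ± 0.26, adjusted p = 0.0259). Their median was -0.46 for SG against IFE and -0.39 for HF against IFE, beside -0.06 and -0.07 for all genes. Rnf2 read 6.60, 7.50 and 7.11 in SG, 7.84, 8.10 and 8.43 in HF, and 7.69, 8.26 and 8.40 in IFE, so that its SG arrays lay below all others. Median centring of the arrays raised every gene's difference alike, by 0.24 in SG against IFE, 0.11 in HF against IFE and 0.13 in SG against HF. All these Polycomb calls then fell under the log2 minimum.

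Of the Trithorax and demethylase genes, which oppose Polycomb, 8 of 13 were measured. Kdm6a, which removes the Polycomb mark from histone H3, was the 1 of 8 called in any comparison, in SG against IFE, where 6.96% of all genes were lower. It read 7.44, 7.58 and 7.58 in SG, 8.04, 8.17 and 8.25 in HF, and 8.34, 8.97 and 8.78 in IFE, lower in SG than in IFE by a log2 difference of -1.17 ± 0.19 (adjusted p = 0.00109). The 3 compartments did not overlap. Under median centring, which raised every difference of SG from IFE by 0.24, Kdm6a fell under the log2 minimum.

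Of 18 other regulators of the body axis and the limb, 15 were measured. In any comparison 1 was called, higher in SG than in IFE, where 2.54% of all genes were higher. Tbx15, a T-box factor that sets the border between dorsal and ventral skin colour in mice, read 10.23, 9.91 and 10.13 in SG, 9.45, 9.27 and 9.28 in HF, and 9.08, 9.05 and 9.05 in IFE. It rose in SG against IFE by 1.03 ± 0.16 (adjusted p = 0.000838), and the order of SG over HF over IFE was that of Hoxd1. SG against HF gave 0.76 ± 0.16 (adjusted p = 0.0106), below the log2 minimum. Without SG replicate 3 Gmnn, which encodes geminin, was also called, lower in SG than in IFE (-1.13, adjusted p = 0.00516, beside -0.71 with it).

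The genes beside the clusters were read to set the Hox values against their neighbours, taking the nearest 2 measured genes at each end (16 genes). In SG against IFE 1 was higher, the sorting nexin Snx10 beside the HoxA cluster (1.46 ± 0.21, adjusted p = 0.000647), and 1 lower, the oxidative stress factor Nfe2l2 beside Hoxd1 (-1.36 ± 0.20, adjusted p = 0.000594). Of all genes, 2.54% were called higher and 6.96% lower in that comparison, and 1.81% higher in SG against HF. In SG against HF 1 was higher, Hibadh beside Hoxa13 (1.45 ± 0.28, adjusted p = 0.00747), and in HF against IFE limma called 0. Hoxd1 and Nfe2l2 thus moved in opposite directions in SG against IFE. At the Hoxc13 end, Calcoco1 was lower in SG than in HF by a log2 difference of -0.85 ± 0.18 (adjusted p = 0.0125), below the log2 minimum. Atf7 there differed by 0.14 ± 0.22 (adjusted p = 0.759). Also below that minimum, 2 other neighbours were lower in SG than in IFE. They were Snx11 beside Hoxb1 (-0.99 ± 0.19, adjusted p = 0.00301) and Smug1 beside Hoxc4 (-0.86 ± 0.19, adjusted p = 0.00811). Hoxb1 and Hoxc4 differed the other way, by 0.41 and 0.54, and did not pass the test.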

How the data were processed

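RNA of 9 pooled dissections was amplified and measured on exon arrays, per the labels' protocols. The authors deposited a linear intensity for every probe set and array (2.5 to 30815), and the submitters' processing notes name RMA, Affymetrix Power Tools and the build mm9, without versions or roles. Array medians ran from 176 to 234, so their medians were not equalised. Values were taken to log2 without a pseudocount or any further normalization. Of 154736 probe sets, 146964 had 1 symbol in the platform annotation, 1060 several and 6712 none, and only the first were named. Of those with several, 8 carried Hox symbols, 7 of them Hoxd3 with Hoxd4, and were left out. Old symbols were updated for 1754 genes through RefSeq's table on GRCm38, which held 14472 of the 14507 genes.

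The fit used limma 3.58.1 (R 4.3.3) on all 14507 genes and 9 arrays, with a mean for each compartment, eBayes and Benjamini-Hochberg adjustment over all genes. Errors after ± are SE of that fit, with n = 3 arrays per compartment. A call needed an adjusted p below 0.05 together with a log2 difference of 1 or more in size. The number of arrays limits the precision, and the median SE of a Hox difference was 0.18. The members and lists were chosen with earlier results of these data known. Values on all arrays are given for members called or past the F test, for the 3 with the highest mean and for paralogue group 13. From a list, up to 4 members with the smallest p in a comparison, called ones first, and up to 2 of the opposite direction were named. Genes named outside this rule are said to be so or stand in a count of 5 or fewer. The code was checked on simulated data with known changes. The alternatives were blocks, scalings, other gene values, a filter on dim genes, moderation, array weights, fits of 2 compartments, thresholds and leaving out arrays.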

Additional observations from a re-analysis of the deposited data

How the results depend on the processing

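No Hox difference that was called, with its log2 minimum, changed sign under any alternative. The difference of Hoxd1 in SG against IFE, which passed the adjusted p without that minimum (0.92), was -0.27 with the brightest probe set. The 2 calls of SG against IFE became 4 with quantile normalization, 4 with median centring, 1 without the dimmer 50% of genes (which left 10 Hox genes tested), 1 with the mean over probe sets, 5 with no log2 minimum and 1 with a minimum of 1.5. The 1 call of HF against IFE became 2 with the replicate number as a block (Hoxc9 was added), 2 with the last letter in the array names as block (the letter block), 2 with median centring, 2 with array weights, 3 with no log2 minimum, and 0 without the dimmer genes, with the brightest probe set, with a minimum of 1.5, or without SG replicate 3 and HF replicate 2 (chosen after seeing the data). The 2 calls of SG against HF became 0 with the letter block, 1 with the brightest probe set, 0 with the mean over probe sets, 1 with only these compartments in the fit and 0 with a minimum of 1.5. Under the letter block the 2 calls of SG against IFE fell on Hoxc10 and Hoxc13, so that of Hoxc8 was lost. The 6 genes of the F test became 2 with the letter block (Hoxc8 and Hoxc10), 12 with quantile normalization, 12 with median centring and 10 with array weights. With the brightest probe set 8 passed, among them Hoxb4, Hoxb8 and Hoxb9 but not Hoxc13 or Hoxd1. The cause was not tested where the alternative's construction does not show it. Leaving out each array gave 1 to 2, 0 to 2 and 0 to 2 calls, and 4 to 6 genes in the F test. Same-numbered arrays correlated at -0.02 to 0.23 in their deviations from group means, and the numbers were not taken as pairs. No baseline from differently numbered arrays was set beside this range, so it does not show that pairing was absent. With the replicate block the other counts were 2 for SG against IFE, 2 for SG against HF and 6 in the F test. Differences of dim genes may be compressed, and without detection calls the signal over background of a Hox gene is unknown.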
